A study of Arabidopsis thaliana with 30 samples.

Results

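Cells sorted as epidermis from the Arabidopsis thaliana primary root grown at high phosphate were profiled here through 3 RNA-seq libraries. The series held 15 high-phosphate (HPi) libraries and 30 libraries in all. Below, epidermis names the label of this sort. The 3 libraries were chosen by their label, not by any measured value, and each gene was compared between them and the average of the other 4 sorted cell types at HPi. The epidermis cells came from plants carrying WER::GFP. The other sorts were cortex (line J0571), pericycle (J0661), stele (SHR::GFP) and lateral root cap (J3411), each with 3 libraries at HPi and 3 at low phosphate (LPi). All lines bear the genotype label Wild Type, and all seedlings were harvested after 6 days on half-strength medium, dissociated and separated by fluorescence-activated cell sorting. The J lines are enhancer-trap lines, in which a GAL4 driver reports a local enhancer, while WER::GFP and SHR::GFP are promoter reporters. Each cell type was sorted from a line of its own, so line and cell type cannot be told apart as the source of any difference. Nothing in the labels says whether the 3 libraries of a group came from separate plants or sorts, so p-values measure the spread between these libraries, which may be technical.

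The root epidermis is a single outer cell layer with alternating files of root hair cells and non-hair cells. WEREWOLF (WER), a MYB factor, and GLABRA2 (GL2), a homeodomain factor that acts downstream of it, set the non-hair fate, whereas ROOT HAIR DEFECTIVE6 (RHD6) and the RSL factors drive hair growth. The same layer takes up ions and water from the soil and meets soil microbes first. At the root tip, epidermis and lateral root cap arise from shared initials, and the WER promoter is known to be active in both.

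WER (AT5G14750) was measured at 21.6, 14.4 and 13.4 CPM (counts per 1000000 reads in genes, after normalisation) in the epidermis libraries, at 4.06, 0.954 and 2.75 CPM in the lateral root cap libraries, and between 0 and 0.982 CPM (median 0) in the 9 libraries of cortex, pericycle and stele. All 3 epidermis libraries lay above all 12 others, and the log2 difference from the mean of the other 4 sorts was 6.38 (SE 0.95, edgeR adjusted p = 6.99e-05). Against the lateral root cap alone it was 2.69 (SE 1.36, adjusted p = 0.327), so that pair did not pass the test.

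GL2 (AT1G79840) was found at 16.4, 29.6 and 28.5 CPM in epidermis, at 27, 8.95 and 4.76 CPM in lateral root cap, and between 0 and 0.727 CPM (median 0.25) in the inner sorts. The epidermis and root cap ranges overlapped and both stood above all 9 inner libraries. The log2 difference was 5.14 (SE 0.64, adjusted p = 1.02e-05) from the mean of 4 and 0.89 (SE 0.91, adjusted p = 0.68) from the root cap. WER is itself the reporter of the epidermis line, so its level above the inner sorts is not independent support for the label. GL2 separated the epidermis sort from the inner tissues. Neither marker separated it, by the test, from the root cap sort.

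**Figure D1:**
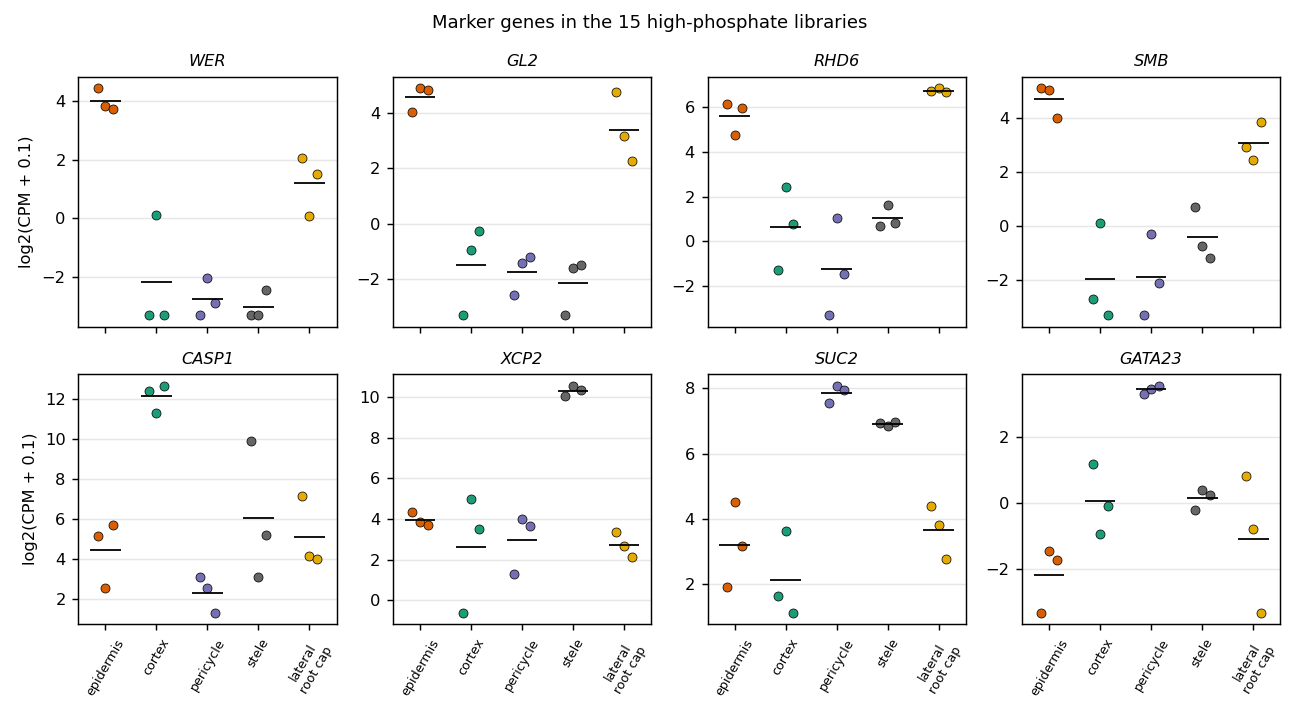
Levels of 8 marker genes as log2(CPM + 0.1) on the vertical axis, for the 5 sorts at high phosphate on the horizontal axis; each point is 1 library and each bar the mean of 3. WER is highest in the 3 epidermis libraries, with root cap libraries at 0.954 to 4.06 CPM, and GL2, RHD6 and SMB (root cap) are high in both outer sorts, whereas the endodermis gene CASP1 reaches 6512 CPM outside the epidermis.

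Across the 15 HPi libraries the reads counted in genes ran from 1097568 (stele library 1) to 122076663 (pericycle library 2). Low maxima given below for the inner sorts can rest on very few reads in that stele library. The epidermis libraries held 6017023, 12846088 and 40313216 reads and detected 19748, 23797 and 28499 genes. The correlation of log2 CPM over 23433 genes was 0.863 to 0.894 among the 3 epidermis libraries, 0.714 to 0.845 with the root cap libraries and at most 0.782 with the others, as a description. Endodermis genes were not confined to a sort of their own: the summed level of the 12 listed markers was 19 to 154 CPM in epidermis, 6444 to 14660 CPM in the cortex libraries and 33 to 2227 CPM in stele. The 5 listed cortex markers, 3 of them tested, summed to 3.6 to 8.1 CPM in the libraries labelled cortex and to 8.2 to 17.0 CPM in epidermis, so the cortex label was not borne out by them. Epidermis library 3 at HPi and library 3 at LPi were far closer than any other pair of 1 cell type (SD of the log2 ratio 0.0989 over 5019 genes, against 0.190 for the next pair), so HPi and LPi values of the epidermis are not fully independent.

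Of 23433 genes tested, 3576 (15.3%) were called higher in epidermis than in the mean of the other 4 sorts and 1624 (6.93%) lower, at an adjusted p under 0.05. The median log2 difference of all genes was 0.08. In 941 genes (4.02%) all 3 epidermis libraries lay above all 12 others. Without epidermis library 3 the number called higher was 2587, of which 2531 were among the 3576.

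By the naming rule (calls with no overlap and a mean log2 CPM of at least 2) the genes with the largest rises were THAS1, CYP705A5, AT3G49190, AT3G19430, AT2G15220, AT2G39040, AT5G55110, AT1G36060, BRN1, CPT, CSLB01, AT4G23590, MES1, AT5G38020 and XTH17, with log2 differences from 9.50 down to 6.10. AT3G49190, annotated as a WSD1-like O-acyltransferase of the wax ester synthase type, stood at 1434, 1539 and 2049 CPM in epidermis, 358, 448 and 850.3 CPM in root cap and at most 22.1 CPM elsewhere (log2 difference 6.45, SE 0.86, adjusted p = 0.000224). XTH17, a xyloglucan endotransglucosylase/hydrolase that remodels the wall during cell growth, stood at 593, 467 and 767 CPM in epidermis, 117, 177 and 163 CPM in root cap and at most 13 CPM elsewhere (log2 difference 6.10, SE 0.41, adjusted p = 2.18e-07). In both genes the order was epidermis, then root cap, then the inner sorts, with no overlap between the 3 levels. The other names in this set are a class III peroxidase (AT2G39040), a basic secretory protein (AT2G15220), an ERF/AP2-type factor (AT1G36060), a cis-prenyltransferase (CPT), a cellulose synthase-like protein (CSLB01), a tyrosine transaminase-like protein (AT4G23590) and a methyl esterase (MES1). CSLB01 lies among close copies, so its reads could be split by the counting.

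The lateral root cap was the nearest sort. It was the next highest in 2602 of the 3576 genes (72.8%), against 37.0% of all genes tested. The stele was next in 504 (14.1%), the cortex in 335 and the pericycle in 135. Of the 3576 genes, 2321 were within 1 log2 unit of the root cap, a share near that of all genes tested (14155 of 23433). By the test, 332 of the 3576 were also higher than the root cap and 6 were lower. The direct comparison with the root cap called 614 genes higher (2.62%) and 217 lower (0.926%), a split that became 464 and 283 with RLE size factors, 475 and 343 with a filter of 5 CPM in 3 libraries, 453 and 258 with limma voom and 1119 and 771 with DESeq2. The comparison with cortex called 2631 higher and 2065 lower, that with pericycle 3642 and 2916, and that with stele 3018 and 2448. A total of 1562 genes were higher than cortex, pericycle and stele each, and 115 of these (0.491% of genes tested) were higher than the root cap as well.

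**Figure D2:**
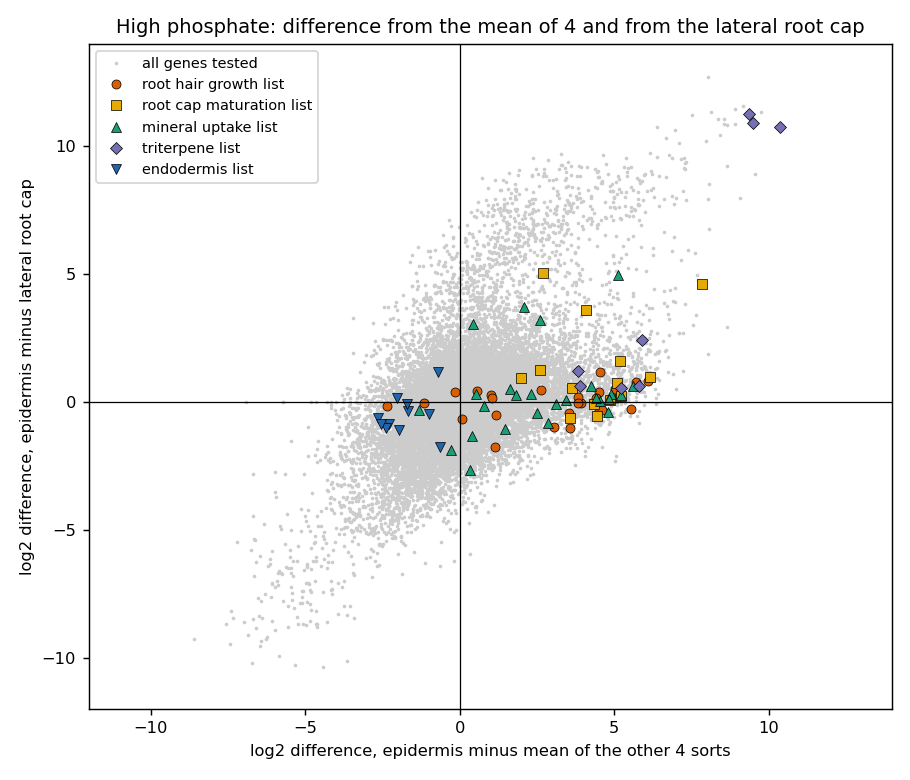
Each grey point is 1 of the 23433 genes tested: the horizontal axis is the log2 difference of epidermis from the mean of the other 4 sorts, the vertical axis that from the lateral root cap alone. On the horizontal axis 20 of 26 root hair members and 17 of 26 mineral uptake members were called higher. Against the root cap no root hair member and only AAP1 and NRT1.2 of the carriers were called. In that comparison 2.62% of all genes were higher and 0.926% lower. Above 10 on the vertical axis lie 3 triterpene members.

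A total of 23 gene lists were used to describe functions. The shares called higher were 8 of 8 for the triterpene clusters, 13 of 14 for root cap maturation and cell death, 9 of 10 for ER bodies and root beta-glucosidases, 20 of 26 for root hair growth, 17 of 26 for mineral uptake carriers and 10 of 19 for aquaporins, against 15.3% of all genes. In the lists of inner tissues, 0 of 11 were called higher for endodermis, 0 of 9 for xylem and 0 of 10 for phloem. The counts were 1 of 7 for pericycle (TIP2;3), 1 of 8 for procambium (the cytokinin receptor AHK4) and 1 of 3 for cortex (AT5G02000). Lists this small cannot show a share below the 15.3% of all genes. The median log2 differences of these lists, in the same order, were -1.98, -1.34, -0.29, -0.57, -1.31 and, for cortex, 2.32.

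**Figure D3:**
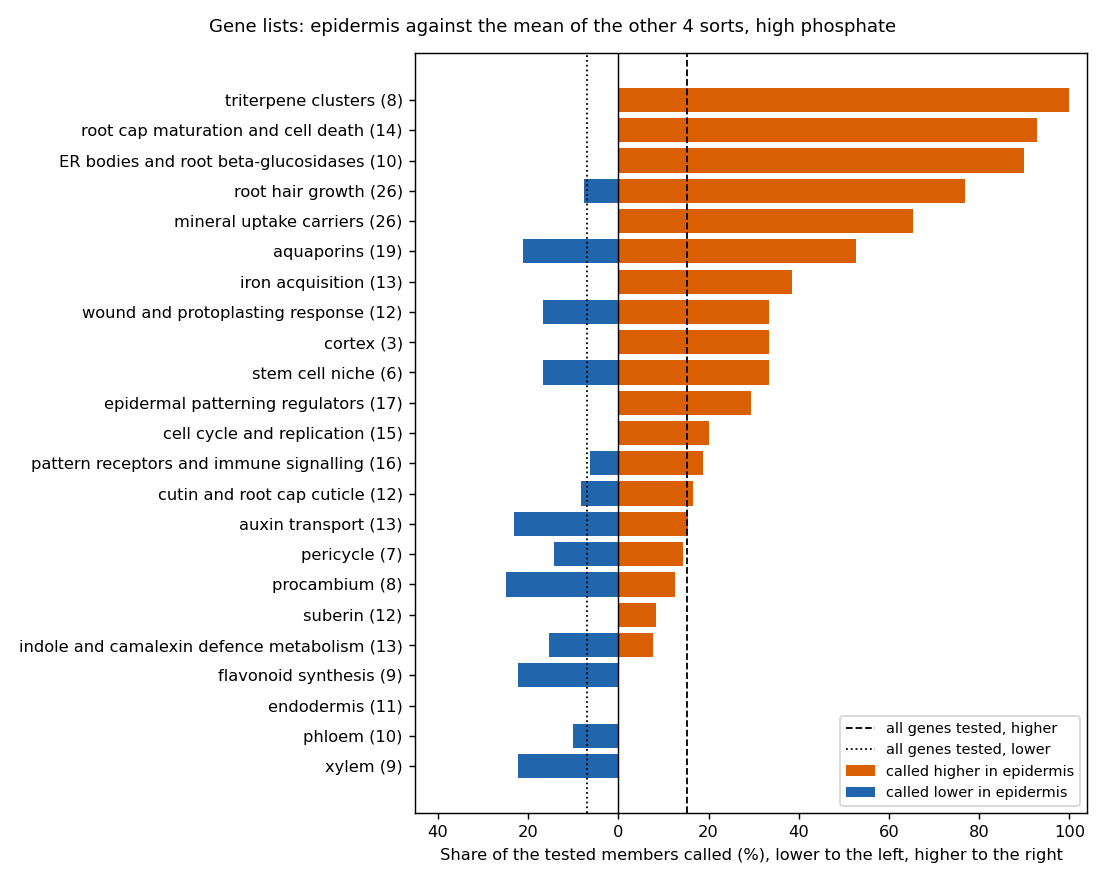
Share of the tested members of each gene list called higher (right, orange) or lower (left, blue) in epidermis than in the mean of the other 4 sorts, in percent, with the number tested in brackets; the dashed and dotted lines are the shares over all genes, 15.3% and 6.93%. The triterpene, root cap, ER body and root hair lists have the highest shares, whereas no endodermis member was called in either direction.

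Among the 17 tested patterning regulators 5 were called higher, 0 lower and 12 were not called, with a median log2 difference of 0.80, against 15.3% of all genes called higher. The 5 were WER, GL2, MYB23, TTG2 and ZFP5, factors that act within the hair and non-hair pathway or, for ZFP5, upstream of hair initiation. MYB23, a MYB factor that acts redundantly with WER, stood at 22, 18.8 and 20.4 CPM in epidermis against 25.5, 28.6 and 19.9 CPM in root cap and 0.208 to 5.75 CPM in the inner sorts. Epidermis and root cap overlapped in MYB23 and both exceeded all inner libraries (log2 difference from the mean of 4, 3.40, SE 0.54, adjusted p = 0.000128). The hair-promoting factor CPC and the WD40 protein TTG1, which serves in complexes of many tissues, did not pass. CPC was at 26.6, 16.4 and 19.9 CPM in epidermis and between 4.47 and 36.7 CPM in the 12 others (log2 difference -0.16, SE 0.33, adjusted p = 0.805).

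Most listed root hair genes, but not all, were higher in epidermis than in the inner sorts. Of 26 members 20 were called higher and 2 lower, with a median log2 difference of 3.70, against 15.3% and 6.93% of all genes. None differed from the root cap by the test, where 2.62% of all genes were higher and 0.926% lower. A list of 26 cannot show a share below these. Against single inner sorts, 17 were higher than cortex, 20 than pericycle and 19 than stele. The summed level was 1778 to 3430 CPM in epidermis, 2246 to 2904 CPM in root cap, 1286 to 1725 CPM in cortex and 764 to 875 CPM in pericycle and stele. The sums of epidermis and cortex thus lay close. The promoters of 3 members are shown for a short element, GCACGT on either strand, a form of the root hair element core. It occurred in 8 of the 26 windows (30.8%) against 3.71% of the 22387 tested genes with a window. Other forms of the core were not searched, so a window without GCACGT may still hold the element. The window is the 250 bases before the RefSeq gene start on build TAIR10.1. Capitals mark matches to GCACGT or to the W-box TTGACC, searched on both strands. A W-box was in 12.3% of all such windows. EXPA7 is at chr1:4276255-4276504 (plus strand), LRX1 at chr1:4069742-4069991 (plus strand) and COBL9 at chr5:19974531-19974780 (minus strand).
EXPA7: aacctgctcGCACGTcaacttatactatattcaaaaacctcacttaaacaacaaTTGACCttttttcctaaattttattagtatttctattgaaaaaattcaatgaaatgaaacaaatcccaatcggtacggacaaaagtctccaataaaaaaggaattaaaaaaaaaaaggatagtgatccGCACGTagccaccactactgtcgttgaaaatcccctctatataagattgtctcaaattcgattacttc
LRX1: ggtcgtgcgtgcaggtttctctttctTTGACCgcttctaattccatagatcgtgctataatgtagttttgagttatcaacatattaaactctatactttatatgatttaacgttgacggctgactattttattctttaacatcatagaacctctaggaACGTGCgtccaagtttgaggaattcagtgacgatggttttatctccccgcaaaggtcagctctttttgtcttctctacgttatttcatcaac
COBL9: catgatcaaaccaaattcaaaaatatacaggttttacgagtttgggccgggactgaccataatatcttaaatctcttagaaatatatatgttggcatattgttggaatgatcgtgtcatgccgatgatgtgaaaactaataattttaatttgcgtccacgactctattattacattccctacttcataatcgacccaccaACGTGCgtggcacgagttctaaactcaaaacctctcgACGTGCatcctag
The element stood in 5.95% of windows of genes called higher and 2.49% of those called lower. Among genes higher than each of the other 4 sorts it was in 4 of 114 windows (3.51%), near the share of all tested genes. The list was made of hair genes and the element is named for them, so its share in the list is a description and not a test. In the root hair list it was present in 7 of the 20 called higher. A match describes these letters only, and binding was not measured.

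EXPA7, an expansin of hair cells, was at 69.8, 36.9 and 127 CPM in epidermis, 106, 126 and 82.7 CPM in root cap and 0.323 to 2.84 CPM in the inner sorts. The outer sorts overlapped and neither overlapped the inner ones (log2 difference from the mean of 4, 4.47, SE 0.37, adjusted p = 2.02e-07). EXPA7 and EXPA18 are close copies whose reads could be split by the counting. LRX1, an extensin chimera of the hair wall, was at 77.4, 86.4 and 99 CPM in epidermis, 40.1, 78.7 and 31.4 CPM in root cap and at most 1.92 CPM elsewhere (log2 difference 6.09, SE 0.54, adjusted p = 1.45e-06). COBL9, a glycosylphosphatidylinositol-anchored protein of hair growth, was at 22.5, 42.9 and 63.7 CPM in epidermis, 34.8, 23.7 and 17.7 CPM in root cap and at most 0.764 CPM elsewhere (log2 difference 5.72, SE 0.55, adjusted p = 6.64e-07). Of the transcription factors, RHD6 rose by 3.57 (SE 0.73, adjusted p = 0.00342) and RSL2 by 5.01 (SE 0.62, adjusted p = 9.01e-06) in log2 units, whereas RSL1 was not called (1.03, SE 0.79, adjusted p = 0.425). The 2 members called lower, LRL1 and LRL2, encode bHLH factors that also act outside hairs. LRL2 was at 7.64, 4.47 and 7.02 CPM in epidermis and at 15.2 to 203 CPM in the inner sorts, but at 10.7, 6.5 and 4.49 CPM in root cap, so the 2 outer sorts were the low ones. Without epidermis library 3 the number of members called higher was 16.

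Root cap genes were high in both outer sorts. SOMBRERO (SMB), BEARSKIN1 (BRN1) and BEARSKIN2 (BRN2) are NAC factors of root cap maturation, while the metacaspase MC9 and the nuclease BFN1 serve in dying cells. Of the 14 tested members of this list 13 were called higher and 0 lower (median log2 difference 4.39). Of the 14, 3 were higher than the root cap itself, against 2.62% of all genes. The summed level of the list was 6703 to 10007 CPM in epidermis, 4775 to 13546 CPM in root cap, 897 to 1056 CPM in stele and 78 to 197 CPM in cortex and pericycle. SMB was at 33.6, 32.7 and 15.6 CPM in epidermis, 7.4, 5.31 and 14 CPM in root cap and 0 to 1.53 CPM elsewhere (log2 difference 5.18, SE 0.79, adjusted p = 0.000124). All 3 epidermis libraries lay above the 3 root cap libraries, yet the difference between the 2 sorts did not pass (log2 difference 1.61, SE 1.12, adjusted p = 0.517). BRN1 was at 144, 124 and 166 CPM in epidermis and 64.2, 62.3 and 91.7 CPM in root cap (log2 difference from the mean of 4, 6.16, SE 0.65, adjusted p = 2.06e-05). RCPG, a polygalacturonase of root cap cell separation, was at 474, 361 and 168 CPM in epidermis against 11.2, 5.79 and 23.6 CPM in root cap and 0 to 13 CPM elsewhere. It was higher than the root cap by 4.61 in log2 units (SE 1.02, adjusted p = 0.0307), as were the cellulase CEL5 (5.06, SE 0.92, adjusted p = 0.00496) and the carboxypeptidase SCPL48 (1.25, SE 0.33, adjusted p = 0.0432). With 1 library left out at a time, CEL5 kept its call in all 15 fits, whereas RCPG lost it in 7 (highest adjusted p = 0.106) and SCPL48 in 10 (highest adjusted p = 0.147), in both without root cap library 2. In a fit of all 30 libraries, LPi included, none of the 3 calls held (adjusted p = 0.0640 for CEL5, 0.0799 for RCPG and 0.150 for SCPL48), and against a minimum log2 difference of 1 CEL5 alone passed, with RCPG at adjusted p = 0.0940 and SCPL48 at 0.709. RCPG also missed with no filter on low counts (adjusted p = 0.0524), and SCPL48 with RLE size factors (0.0565) and with a filter of 5 CPM in 3 libraries (0.0591). The sort labelled epidermis thus carried root cap transcripts at summed levels that overlapped those of the root cap sort. The part of root cap cells in the other results was not tested. In bulk samples of sorted cells, a larger share of a cell type and more RNA per cell cannot be told apart.

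Among the triterpene genes were 3 that separated the epidermis from the root cap as well. Arabidopsis roots make thalianol and marneral, specialised triterpenes, from gene clusters on chromosome 5 in which a synthase, cytochromes P450 and acyltransferases are neighbours. All 8 tested members were called higher (median log2 difference 5.85), against 15.3% of all genes. Of the 8, 6 had no overlap, against 4.02% of all genes, and 3 were higher than the root cap, against 2.62%. The summed level of the 8 was 7222 to 8359 CPM in epidermis, 812 to 1404 CPM in root cap and 4.0 to 171 CPM in the inner sorts.

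THAS1 (AT5G48010), the thalianol synthase, was at 2790.4, 3206 and 3445 CPM in epidermis against 6.92, 0.179 and 0.0529 CPM in root cap and 0.0455 to 51.2 CPM (median 1.33) in the inner sorts. No library of another sort came near the epidermis level, and the highest of the 12 was in the stele. The log2 difference was 9.50 (SE 1.16, adjusted p = 0.000124) from the mean of 4 and 10.92 (SE 2.33, adjusted p = 0.0298) from the root cap. CYP705A5 (AT5G47990), a thalianol pathway P450, was at 1885, 1952 and 2272 CPM in epidermis, 3.58, 0.358 and 0.0529 CPM in root cap and 0.0682 to 31.3 CPM elsewhere (log2 difference from root cap 11.27, SE 2.01, adjusted p = 0.0131). The acyltransferase gene AT5G47980 was at 149, 159 and 165 CPM in epidermis and at most 1.53 CPM in any other library (log2 difference from root cap 10.77, SE 1.54, adjusted p = 0.00267). These 3 genes were higher than each of the other 4 sorts. With 1 library left out at a time, the call against root cap was kept in all 15 fits for AT5G47980, but it was lost in 2 for CYP705A5 (highest adjusted p = 0.0612, without root cap library 2) and in 7 for THAS1 (highest adjusted p = 0.0988, without the same library), with THAS1 log2 differences between 10.08 and 14.73. DESeq2 set no adjusted p for THAS1 and CYP705A5 in that comparison, and the THAS1 call was lost in the fit of all 30 libraries (adjusted p = 0.0686) and against a minimum log2 difference of 1 (0.0733).

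Not every gene of the thalianol cluster shared the low root cap level. CYP708A2 was at 955, 837 and 1120.2 CPM in epidermis and 226, 93.4 and 228 CPM in root cap, a log2 difference of 2.41 (SE 0.78, adjusted p = 0.13) that did not pass. AT5G47950, annotated as an acyltransferase, was at 210.0, 208 and 213 CPM in epidermis and 131, 90.6 and 215 CPM in root cap, with overlap. The marneral synthase MRN1 was at 699, 1078 and 596 CPM in epidermis and 545, 379.5 and 629 CPM in root cap, and at most 19.9 CPM elsewhere. MRN1 exceeded the mean of 4 by 5.79 log2 units (SE 0.71, adjusted p = 0.000107) and did not pass against the root cap (log2 difference 0.61, adjusted p = 0.82). The THAS1 promoter (chr5:19456587-19456836, TAIR10.1, plus strand), shown for comparison with those of the hair genes, held none of the 4 motifs searched. These were GCACGT and the W-box as above, the L1 box TAAATGCA, and the G-box with the letters CACGTG.
THAS1: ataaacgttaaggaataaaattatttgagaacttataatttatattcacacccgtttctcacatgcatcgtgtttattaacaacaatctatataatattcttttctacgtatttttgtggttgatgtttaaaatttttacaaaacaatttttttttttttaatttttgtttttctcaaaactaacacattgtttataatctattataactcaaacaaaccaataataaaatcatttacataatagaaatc
An L1 box was in 1.51% and a G-box in 7.02% of all windows of tested genes, and in 1.91% and 9.02% of windows of genes called higher.

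**Figure D4:**
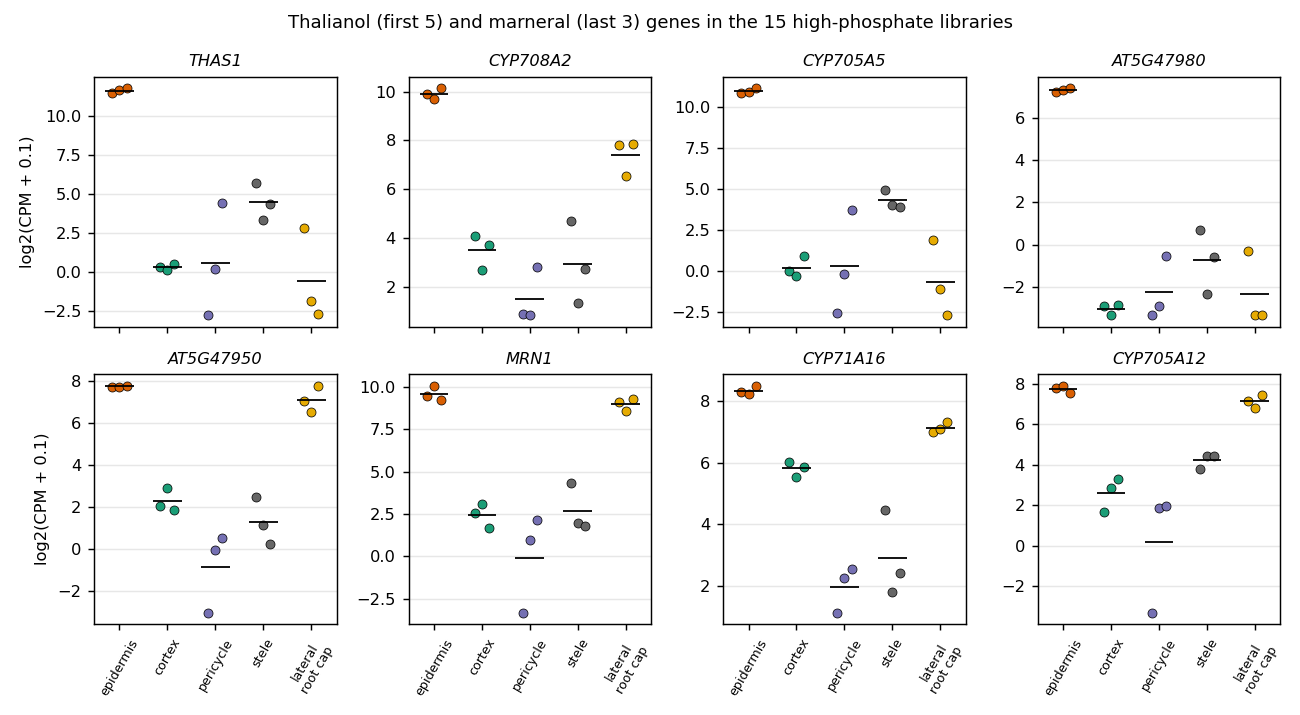
Levels of 5 thalianol cluster and 3 marneral cluster genes as log2(CPM + 0.1) on the vertical axis in the 5 sorts on the horizontal axis; each point is 1 library and each bar the mean of 3. THAS1, CYP705A5 and AT5G47980 are high in epidermis alone, whereas CYP708A2, AT5G47950 and the marneral genes are also raised in the lateral root cap libraries.

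Genes listed for ER bodies and root beta-glucosidases were abundant in both outer sorts. ER bodies are compartments of Brassicaceae cells that store beta-glucosidases, enzymes that activate glucosinolates or related glucosides on tissue damage. Of 10 tested members 9 were called higher and 0 lower (median log2 difference 3.93). Their summed level was 46617 to 54459 CPM in epidermis, 31054 to 64138 CPM in root cap and 634 to 2227 CPM in the inner sorts. That sum includes the root myrosinases TGG4 and TGG5, so it is not the level of ER body genes alone. The root myrosinase TGG4 was at 16052, 17549 and 19448 CPM in epidermis, 6393, 7429.6 and 16459 CPM in root cap and 3.89 to 333 CPM elsewhere (log2 difference 5.89, SE 0.75, adjusted p = 0.000169). BGLU23 (PYK10), the main ER body glucosidase, was at 8037, 7838 and 9886 CPM in epidermis, 6753, 5636 and 8035 CPM in root cap and 233 to 957 CPM elsewhere (log2 difference 3.06, SE 0.17, adjusted p = 8.89e-10). Both outer sorts were high in each gene and overlapped in both. NAI2, needed for ER body formation, was at 1769, 1785 and 1693 CPM in epidermis and 963, 830.4 and 1213 CPM in root cap (log2 difference 3.66, SE 0.43, adjusted p = 4.86e-05). TGG4 and TGG5 are close copies, as are BGLU21 and BGLU22, so their separate values are uncertain.

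Carriers for mineral nutrients were high in both outer sorts. Of 26 tested carriers 17 were called higher and 0 lower (median log2 difference 2.55). The summed level of the 28 listed carriers was 4690 to 6037 CPM in epidermis, 4086 to 4987 CPM in root cap and 874 to 1892 CPM in the inner sorts. The phosphate carrier PHT1;1 was at 387, 367 and 497 CPM in epidermis, 349, 337 and 364 CPM in root cap and 1.32 to 9.16 CPM elsewhere (log2 difference 5.21, SE 0.36, adjusted p = 1.26e-07). The nitrate carrier and sensor NRT1.1 was at 315, 359.9 and 498 CPM in epidermis, 264, 221 and 277 CPM in root cap and 0.0455 to 7.64 CPM elsewhere (log2 difference 5.60, SE 0.74, adjusted p = 0.000192). All 6 outer libraries stood above all 9 inner ones in both genes, and neither differed from the root cap by the test. NAR2.1, the partner protein of high-affinity nitrate carriers, rose by 4.53 (SE 0.24, adjusted p = 5.58e-10). The amino acid carrier LHT1 rose by 4.40 (SE 0.33, adjusted p = 2.18e-07), the ammonium carrier AMT1;3 by 4.88 (SE 0.45, adjusted p = 2.8e-07) and the copper carrier COPT1 by 4.84 (SE 0.44, adjusted p = 3.35e-07). The proton pump AHA2, which energises uptake at the plasma membrane, rose less, by 1.64 (SE 0.17, adjusted p = 1.45e-06). PHT1;1 shares near-identical sequence with its neighbours PHT1;2 and PHT1;3, so its value may include or lack their reads.

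A pair of the 26 tested carriers differed between epidermis and root cap, 1 higher and 1 lower, against 2.62% and 0.926% of all genes. AAP1, an amino acid permease, was at 75.5, 47.9 and 128 CPM in epidermis and 12.9, 9.3 and 8.51 CPM in root cap, with no overlap (log2 difference 3.05, SE 0.41, adjusted p = 0.000392). NRT1.2, a low-affinity nitrate carrier, was at 46.8, 54.6 and 40.3 CPM in epidermis and 89.3, 125 and 138 CPM in root cap (log2 difference -1.32, SE 0.26, adjusted p = 0.00837). Neither passed against the mean of 4 sorts. The NRT1.2 call was lost in the fit of all 30 libraries (adjusted p = 0.156) and against a minimum log2 difference of 1 (0.514).

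**Figure D5:**
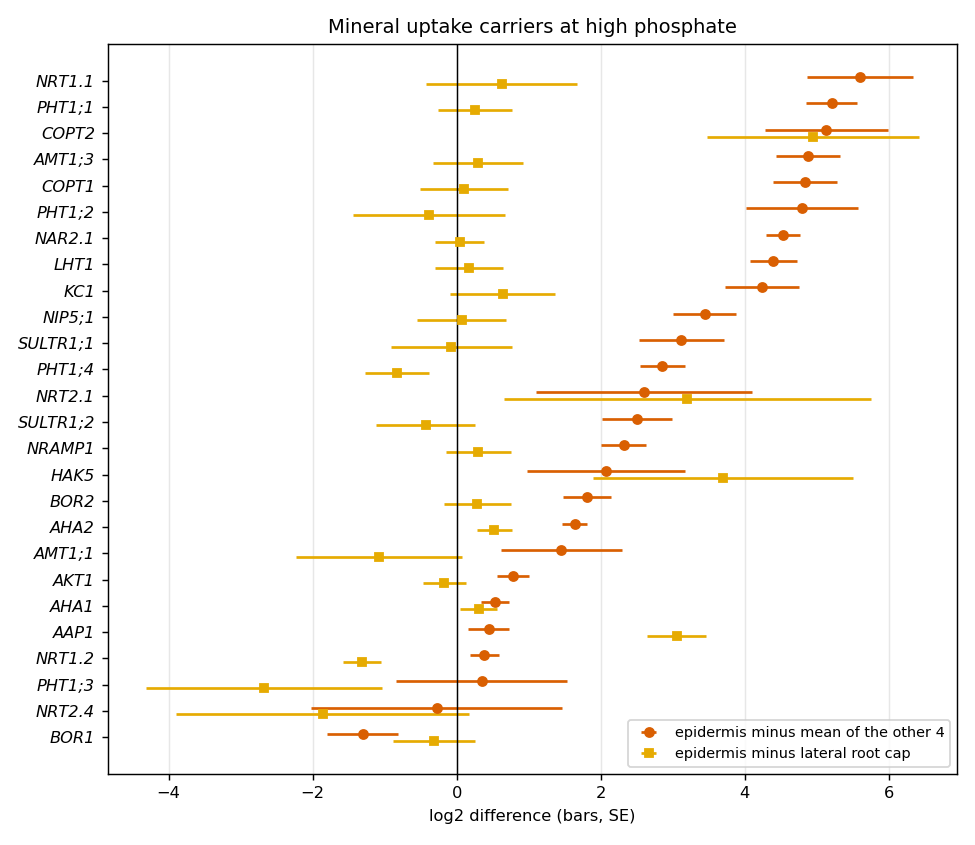
Log2 difference of 26 mineral uptake carriers on the horizontal axis, with genes on the vertical axis: circles give epidermis minus the mean of the other 4 sorts and squares epidermis minus lateral root cap, and bars are the SE. The circles of 17 carriers were called higher, whereas of the squares AAP1 alone was called higher and NRT1.2 alone lower.

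Of 13 tested genes of iron acquisition 5 were called higher and 0 lower (median log2 difference 0.58), against 15.3% of all genes called higher. They were the ferric reductase FRO2 (log2 difference 4.56, SE 0.46, adjusted p = 2.34e-06), the coumarin exporter ABCG37 (4.12, SE 0.22, adjusted p = 5.58e-10), the regulator FIT (2.89, SE 0.38, adjusted p = 1.85e-05), the coumarin synthesis enzyme F6'H1 (1.47, SE 0.35, adjusted p = 0.00532) and the carrier IRT2 (2.37, SE 0.82, adjusted p = 0.0461). Without epidermis library 3 the adjusted p was 0.0752 for F6'H1 and 0.372 for IRT2, so both calls were lost. FRO2 was at 46.6, 56.8 and 30.9 CPM in epidermis, 86.6, 52 and 99.2 CPM in root cap and at most 1.53 CPM elsewhere. Again both outer sorts were high and overlapped.

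The water channels split by member. Of 19 tested aquaporins 10 were called higher and 4 lower, against 15.3% and 6.93% of all genes. PIP2;4 was at 1043, 942 and 1394 CPM in epidermis, 738, 621 and 833 CPM in root cap and 11.7 to 226 CPM elsewhere (log2 difference 3.05, SE 0.21, adjusted p = 9.37e-09). The tonoplast channel TIP2;3, which had been listed as a pericycle marker too, was at 1526, 1125 and 1739 CPM in epidermis against 326 to 936 CPM in all 12 others, and was higher than the root cap by 1.58 (SE 0.25, adjusted p = 0.00159). That call was lost in the fit of all 30 libraries (adjusted p = 0.0542) and against a minimum log2 difference of 1 (0.167). The 4 called lower were PIP2;1, PIP2;3, PIP2;5 and PIP1;4. PIP2;1 was at 2609.9, 2115 and 2971 CPM in epidermis, 2877, 1961 and 2365 CPM in root cap and 4869 to 10662 CPM in the inner sorts (log2 difference -0.98, SE 0.15, adjusted p = 7.63e-05). PIP2;2 and PIP2;3 are close copies, and the value of the latter is uncertain.

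Among the gene families defined by annotated product names, and with at least 10 tested members, WRKY factors had the highest share called higher, 29 of 64 (45.3%), against 15.3% of all genes. Next came xyloglucan endotransglucosylases (11 of 26), arabinogalactan proteins (18 of 47), expansins (8 of 22) and calmodulin-like and EF-hand proteins (22 of 61). Class III peroxidases (20 of 60) and UDP-glycosyltransferases (35 of 105) tied at 33.3%. WRKY75, a factor known from phosphate and defence responses, was at 45.3, 46 and 85.7 CPM in epidermis, 55.8, 43.1 and 30.2 CPM in root cap and 1.33 to 16.2 CPM elsewhere (log2 difference 2.73, SE 0.26, adjusted p = 3.85e-07). EXPA9, a wall-loosening expansin, was at 1630.5, 1662 and 1247 CPM in epidermis, 1522, 1001 and 1733 CPM in root cap and 4.34 to 136 CPM elsewhere (log2 difference 4.68, SE 0.52, adjusted p = 4.28e-05). Both outer sorts were high in both genes. AT5G24070, a class III peroxidase, rose by 5.01 (SE 0.24, adjusted p = 3.72e-10) and was higher than the root cap by 1.91 (SE 0.35, adjusted p = 0.00519), the latter lost in the fit of all 30 libraries (adjusted p = 0.434) and against a minimum log2 difference of 1 (0.123). The families with the highest shares called lower were proteasome subunits (15 of 45), MATE efflux carriers (9 of 47) and glutathione transferases (9 of 51), against 6.93% of all genes. In the MATE and glutathione transferase families 12 members each were called higher as well.

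Genes of defence and of the cuticle had shares of calls near those of all genes (15.3% higher and 6.93% lower). Of 16 tested members of pattern recognition and immune signalling 3 were called higher (the chitin receptor CERK1, the receptor kinase MIK2 and WRKY11) and 1 lower (PEPR2, a receptor for Pep peptides). The chitin receptor rose by 1.14 (SE 0.20, adjusted p = 0.000367) and PEPR2 was lower by a log2 difference of -2.28 (SE 0.40, adjusted p = 0.000357). FLS2, the flagellin receptor, was at 0, 0.613 and 2.77 CPM in epidermis and was not called. In cutin and root cap cuticle synthesis 2 of 12 were called higher and 1 lower. GPAT8, an acyltransferase of cutin synthesis, was at 31, 32 and 18.7 CPM in epidermis, 16, 6.38 and 16.2 CPM in root cap and at most 1.54 CPM elsewhere (log2 difference 5.21, SE 0.89, adjusted p = 0.000497), whereas its relative GPAT4 was at 0, 0.35 and 0.685 CPM in epidermis and up to 26.4 CPM elsewhere (-3.12, SE 1.06, adjusted p = 0.0422). The GPAT4 call was lost without any 1 of the epidermis libraries (adjusted p from 0.0738 to 0.142), and the WRKY11 call without epidermis library 1 or 2 (adjusted p = 0.125 and 0.168).

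In indole and camalexin metabolism 1 of 13 tested members was called higher and 2 lower (median log2 difference -0.32), against 15.3% and 6.93% of all genes. MYB34, a regulator of indole glucosinolates (log2 difference -2.94, SE 0.57, adjusted p = 0.000849), and CYP71B15, which makes camalexin (-2.67, SE 0.44, adjusted p = 0.000286), were lower, while the myrosinase-like PEN2 was higher (3.46, SE 0.37, adjusted p = 8.11e-06). In flavonoid synthesis 0 of 9 were higher and 2 lower, MYB12 and UGT78D2. Of 13 tested auxin carriers 2 were called higher and 3 lower, and the rest were not called (median log2 difference -0.06). ABCB4 was higher by 0.89 (SE 0.20, adjusted p = 0.0026). PIN2 was higher as well, at 254, 292 and 118 CPM in epidermis, 159, 108 and 234 CPM in root cap and 1.39 to 35.4 CPM elsewhere (log2 difference 4.25, SE 0.58, adjusted p = 0.000181). The carriers PIN3, LAX3 and ABCB19, known from inner tissues, were lower. PIN3 was at 2.48, 3.85 and 3.15 CPM in epidermis, 3.1, 0.418 and 0.0529 CPM in root cap and 18.6 to 126 CPM elsewhere. LAX3 lost its call without any 1 of the epidermis libraries (adjusted p from 0.0679 to 0.112) and ABCB19 without library 3 (adjusted p = 0.0612).

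The 10 well-measured genes with the largest fall were AT4G23500, PRR1, AT4G12290, AT1G16310, E12A11, AT1G21520, ADH1, AT2G40960, AT1G08230 and AT4G19390, with log2 differences from -4.52 to -3.52. PRR1, a pinoresinol reductase of lignan synthesis, was at 5.35, 3.41 and 9.11 CPM in epidermis, 19.3, 11.2 and 11.4 CPM in root cap and 94.6 to 314 CPM elsewhere (-3.96, SE 0.35, adjusted p = 2.18e-07). ADH1, the alcohol dehydrogenase of fermentation, was at 26.8, 34 and 65.5 CPM in epidermis, 235, 136 and 149 CPM in root cap and 245 to 2373 CPM elsewhere (-3.70, SE 0.36, adjusted p = 7.44e-07). Epidermis was the lowest sort in both genes, without overlap, and ADH1 was also lower than the root cap (-2.04, SE 0.36, adjusted p = 0.00473), though not against a minimum log2 difference of 1 (adjusted p = 0.0862). The MATE carrier ZF14 was low in both outer sorts, at 13.8, 21.4 and 11.1 CPM in epidermis, 21.5, 25.6 and 7.67 CPM in root cap and 226 to 704 CPM elsewhere.

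A set of 115 genes (0.491%) was higher in epidermis than in each of the other 4 sorts, and 59 (0.252%) were lower than in each. Of the 115, 114 had no overlap, against 4.02% of all genes, a count that follows largely from how the set was chosen. The next highest sort was the root cap in 64 of the 115, the stele in 30, the cortex in 13 and the pericycle in 8. The 10 with the largest smallest pairwise difference were AT5G47980, AT5G43040, WAKL2, WAKL1, AT5G26270, THAS1, PLT2, CYP705A5, CYP706A7 and AT5G05400. AT5G43040, annotated as a cysteine/histidine-rich C1 domain protein, was at 9.36, 12 and 10.2 CPM in epidermis and 0 to 0.0832 CPM in all 12 others. With no read in the root cap and cortex libraries, it was at least 139.7-fold higher than in the root cap and at least 319.7-fold higher than in the cortex, against a floor of 3 counts over the group. WAKL2, a wall-associated kinase-like protein, was at 19.5, 22.8 and 15 CPM in epidermis and at most 0.477 CPM elsewhere, and its neighbour WAKL1 at 10.7, 18.1 and 12.9 CPM against at most 0.764 CPM. The 2 are tandem copies whose reads could be split by the counting. AT5G05400, annotated as an NLR immune receptor, was at 4.4, 6.48 and 11.5 CPM and at most 0.333 CPM elsewhere. PLT2, a stem cell niche factor, varied widely among the epidermis libraries, at 5.92, 15.3 and 1.27 CPM, with no read in the stele or root cap. Leaving out 1 epidermis library left 64 to 74 such genes, of which 59 to 68 were among the 115.

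Markers of other cells were also examined. In the xylem list, summed at 40 to 49 CPM in epidermis and 3470 to 5001 CPM in stele, XCP1 was at 4.59, 1.49 and 6.47 CPM in epidermis and 2.07 to 1075 CPM in the inner sorts (log2 difference -2.82, SE 0.89, adjusted p = 0.0404), a call lost without any 1 of the epidermis libraries (adjusted p from 0.0962 to 0.162). The stele regulator SHR, itself the reporter of the stele line, was at 0.573, 0.525 and 0.514 CPM in epidermis and 6.95 to 32.9 CPM in the inner sorts (-3.63, SE 0.75, adjusted p = 0.00143). CASP1, of the endodermal Casparian strip, was at 35.4, 5.87 and 52.4 CPM in epidermis and up to 6512 CPM elsewhere, a difference that did not pass (-2.27, SE 1.35, adjusted p = 0.296). Of 12 tested genes of the response to wounding and protoplasting 4 were called higher and 2 lower (15.3% and 6.93% of all genes), and 3 were higher than the root cap (2.62% of all genes). The zinc finger factor ZAT12 was at 320, 265 and 519 CPM in epidermis and 94.8 to 278 CPM in the 12 others (log2 difference 1.18, SE 0.22, adjusted p = 0.000598). Its ranges overlapped slightly. The part of wounding in the other results was not tested.

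The epidermis was also compared with the mean of the other 4 sorts at LPi, where 2468 of 22284 genes (11.1%) were higher. Pericycle LPi library 3, with 1863306 reads, stood apart from the other pericycle libraries (SD of the log2 ratio 1.56 to 1.57, against at most 0.417 among the rest). It was kept in the LPi values given here. Without it the LPi calls in both directions numbered 5236 against 3520. Of the 3576 genes higher at HPi, 3513 were tested at LPi and 2052 were called higher there, which is 57.4% of the HPi set and 83.1% of the LPi set. Without epidermis LPi library 3, the near-copy of HPi library 3, the shared genes were 1132, or 31.7% of the HPi set and 86.2% of the LPi set. Leaving out epidermis LPi library 1, 2 or 3 lowered the LPi calls in both directions from 3520 to 1745, 2009 and 1870. The part of the near-copy in the smaller overlap was not tested. Of the 115 genes higher than each sort, 100 were called higher than the mean at LPi, and 86 without that library. THAS1 was at 2636 ± 433 CPM (SD, n = 3) and PHT1;1 at 527 ± 41.7 CPM (SD, n = 3) in the LPi epidermis, against 3147 ± 331 CPM and 417 ± 70.2 CPM (SD, n = 3) at HPi. The LPi and HPi libraries were scaled separately, and a difference between the 2 conditions was not tested.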

How the data were processed

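RNA was prepared with an ultra-low-input SMART-Seq kit after sorting, and the authors deposited 1 table of whole read counts per gene for the 30 libraries. Per the labels, the submitters' processing notes name CASAVA 1.4, FastQC 0.11.9, MultiQC 1.7, STAR 2.5.3a and HTSeq 1.99.2. The genome build, annotation, strand setting and treatment of multi-mapped reads were not stated in any source used here. Of 32833 gene identifiers, 32548 matched the RefSeq annotation, and 5 lines of unassigned reads (6.44 to 9.74% of reads in the HPi epidermis libraries, 4.99 to 11.3% in all HPi libraries) were left out. The accompanying paper concerns another experiment and set no design.

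Counts of the 15 HPi libraries were normalised by TMM, filtered with filterByExpr and fitted with the edgeR 4.0.16 quasi-likelihood test (R 4.3.3) with 1 coefficient per cell type. The contrast was epidermis minus the mean of the 4 other coefficients, a difference of log2 levels that weights each sort equally, and then epidermis minus each sort. Calls had a Benjamini-Hochberg adjusted p under 0.05 over 23433 genes. All p-values are two-sided. The 15 LPi libraries were fitted in the same way. CPM use TMM-scaled totals, and CPM are not divided by gene length, so levels of different genes are not compared. The common biological coefficient of variation was 0.6985 with 10 residual degrees of freedom, which limits small differences. The scripts were tested on simulated counts.

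Named genes were the 15 highest and 10 lowest calls without overlap, up to 4 members per list and direction with the smallest p and those above 100 CPM, up to 3 members from each of the leading families (a tie made 7 with calls upward, and 3 downward), and the 10 leading genes higher than each sort. The text describes a choice of these. FLS2, TTG1 and CPC, which were not called, were named after their values were seen. Members and lists were chosen with earlier results of these data known. Alternatives were DESeq2 1.42.0, limma voom 3.58.1, other size factors, filters, a minimum log2 difference, all 30 libraries, a replicate block and leaving out each library. Correspondence of replicate numbers was checked.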

Additional observations from a re-analysis of the deposited data

How the results depend on the processing

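The 3 epidermis libraries and a biological coefficient of variation near 0.6985 limit what the comparison can resolve, and the cause of the shifts below was not tested. No result reversed. Of 196 called genes examined, 154 kept their call in every alternative except those chosen after seeing the data, and 15, 14 and 19 lost it without epidermis library 1, 2 and 3. For the mean of 4 sorts (5200 calls), a minimum log2 difference of 1 left 2312, while DESeq2 gave 6381 with 2556 lower against 1624. The same minimum left 2446 of 4696 for cortex, 3622 of 6558 for pericycle, 2761 of 5466 for stele and 189 of 831 for root cap. limma voom gave 10706 calls for pericycle and 9676 for stele. For root cap DESeq2 gave 1890 and the fit of all 30 libraries 478. Genes higher than each sort (115) numbered 189 with DESeq2, 253 with voom, 39 with all 30 libraries, 17 with the minimum difference and, as an alternative chosen after seeing the data, 71 without epidermis library 3 and stele library 1. Genes lower than each (59) numbered 174 with DESeq2, 94 with at least 5 CPM in 3 libraries and 9 with the minimum difference. A comparison with cortex, pericycle and stele alone, also chosen after seeing the data, gave 6656 calls.

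With 1 library left out, calls ranged from 3831 to 5605 for the mean of 4, 3264 to 5270 for cortex, 4976 to 7086 for pericycle, 3657 to 5883 for stele and 462 to 1036 for root cap. Genes higher than each ranged from 64 to 132 (74 or fewer without any epidermis library or root cap library 1 or 2), and genes lower than each from 24 (without epidermis library 1) to 89 (without cortex library 2). At LPi, 3520 calls ranged from 1745 (without epidermis library 1) to 5236 (without pericycle library 3), with 2009 and 1870 without epidermis libraries 2 and 3.

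The replicate numbers gave no clear pairing of the libraries: same-number correlations of deviations ran from -0.083 to 0.15, with 5 of 12 best with their own number. With 3 libraries per group, this check cannot settle whether libraries of the same number shared a preparation. The replicate block gave 4973 calls for the mean of 4, 4465 for cortex, 6392 for pericycle, 5251 for stele, 714 for root cap, 114 higher than each, 52 lower than each and 3182 at LPi.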

Other observations

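Beyond the lists described above, other annotated families had calls in unequal shares. Cytochromes P450 had 50 of 208 tested members called higher in epidermis than in the mean of the other sorts and 9 lower, and extensins and proline-rich wall proteins had 41 of 131 higher and 7 lower. NLR immune receptors had 29 of 142 higher and 3 lower. Pentatricopeptide proteins, which process organelle RNA, had 4 of 245 in each direction, and cytosolic ribosomal proteins 6 of 372 higher and 19 lower, against 15.3% and 6.93% of all genes.

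Heat shock proteins, a family chosen after its values were seen, were mostly not called between epidermis and root cap. Of 76 tested members 9 were higher in epidermis than in root cap and 2 lower, against 2.62% and 0.926% of all genes. HSP17.6A, a small heat shock protein, was at 430, 347 and 1597 CPM in epidermis and 50.1, 196 and 164 CPM in root cap (log2 difference 2.53, edgeR adjusted p = 0.0334). AT1G53540 was at 129, 133 and 586 CPM in epidermis and 14.6, 39.5 and 44.9 CPM in root cap (log2 difference 3.09, edgeR adjusted p = 0.00938). Epidermis library 3 was the highest in both, and without it 8 members were called higher, AT1G53540 among them (edgeR adjusted p = 0.00435) but not HSP17.6A (edgeR adjusted p = 0.0741). Against the mean of 4 sorts 7 members were called higher and 9 lower, against 15.3% and 6.93% of all genes.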
